A study of Mus musculus with 31 samples.

Results

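The matrix metalloproteinases (MMPs) and their tissue inhibitors (TIMPs) were followed through 10 genes of the 22609 in the count files: the collagenase Mmp13, the gelatinases Mmp2 and Mmp9, the stromelysin Mmp3, the macrophage elastase Mmp12, the membrane-type protease Mmp14, Mmp19, and the inhibitors Timp1, Timp2 and Timp3. They were taken by name as members of 1 enzyme and inhibitor family, and all 10 were found in each of the 31 libraries. The libraries were bulk poly(A) RNA-seq of the left masseter muscle (MM), 1 library per mouse, from adult male C57BL/6J mice of 2 to 4 months. The question was how these genes moved after an inflammatory injection and after an injection that digests the matrix itself. Complete Freund's adjuvant (CFA), an oil emulsion that causes inflammation, was given to 3 mice collected at 1d and 3 at 5d, with 3 vehicle-treated mice of that experiment. Collagenase type 2 (Col), a protease that degrades extracellular matrix, was given at 10U to 4 mice collected at 2d, 3 at 6d and 4 at 12d. It was given at 0.2U to 4 mice labelled 1C and 4 labelled RPC, whose days the labels do not map. A further 3 mice, which the labels call Contr and which were taken as Col vehicle, served as reference for all Col groups, so these comparisons share their reference. PBS was the vehicle, and the study's text gives 1d and 14d for the groups that the labels call 2d and 12d.

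MMPs are zinc-dependent endopeptidases that are made as inactive zymogens and cleave collagens, gelatin, proteoglycans, elastin and other matrix proteins once their propeptide is removed. TIMPs bind the active site and block it, so the balance of both families limits how fast matrix is taken apart and rebuilt. In injured muscle, fibroblasts, macrophages and the muscle's own progenitor cells are known sources of these enzymes, while MMP9 and MMP13 are also typical products of osteoclasts, neutrophils, chondrocytes and osteoblasts.

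The libraries held 14843778 to 29076671 reads on genes, with a median of 20834472. All 10 skeletal muscle markers were detected in every group, with a summed level of 35100 to 192000 CPM (counts scaled to the library total), while salivary gland markers ranged from 11.5 to 483000 CPM and were at 24.8, 11.5 and 35.9 CPM at 6d post-Col (10U). Some mice stood apart from their groups, in vehicle as in treated groups. Replicate 3 of CFA vehicle had 95300 CPM of muscle markers against 184000 and 192000 CPM. Its neutrophil markers were at 984 CPM against 4 and 7.25 CPM. Replicate 2 of Col vehicle had 238000 CPM of salivary gland markers against 110 and 61300 CPM. After 10U Col, 2 further mice were set apart. Replicate 4 at 2d had the lowest Timp1 and Mmp14 of its group and 70000 CPM of muscle markers against 35100 to 42500, and replicate 4 at 12d had 7220 CPM of fibroblast markers against 1360 to 2270. Reads called ambiguous between genes made up 0.559 to 0.703% of uniquely aligned reads in all 11 libraries of 10U Col and 0.125 to 0.259% in the other 20. This difference in counting and the 10U injection cannot be told apart.

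Mmp13, Mmp12 and Mmp3 are neighbours. In build mm9 they span chr9:7272514-7283333, chr9:7344381-7369499 and chr9:7445822-7455972 and lie on the plus strand of chromosome 9, in a run of MMP genes that also holds Mmp1b, Mmp1a, Mmp10, Mmp8, Mmp27, Mmp20 and Mmp7. The others are spread over the genome, with Mmp9 on chromosome 2, Mmp2 on 8, Timp3 and Mmp19 on 10, Timp2 on 11, Mmp14 on 14 and Timp1 on X. An exon overlap with a gene on the opposite strand covered 23.1% of the exon bases of Mmp19 (1110012D08Rik) and 21.3% of those of Timp3 (Syn3). Of Mmp3, 8% of 50-base windows occurred also in Mmp10, so reads from these windows cannot be told apart between both genes. Timp1 lies inside Syn1 and shares no exon base with it.

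RefSeq promoters (build GRCm38.p6, 250 bases before to 50 after the start of a transcript) were at hand for 7 of the 10 genes. The 5 shown belong to genes that passed the test in at least 1 comparison below: Mmp12, Mmp14 and Timp1, which were higher at 6d post-Col (10U), and Mmp3 and Mmp13, which were lower at 6d than at 2d. Capitals mark, on either strand, TGANTCA (the AP-1 motif), TATAAA (the TATA box) and GGGCGG (the GC box). None of these motifs overlapped another in the windows shown.
Mmp13, chr9:7272264-7272563, plus strand: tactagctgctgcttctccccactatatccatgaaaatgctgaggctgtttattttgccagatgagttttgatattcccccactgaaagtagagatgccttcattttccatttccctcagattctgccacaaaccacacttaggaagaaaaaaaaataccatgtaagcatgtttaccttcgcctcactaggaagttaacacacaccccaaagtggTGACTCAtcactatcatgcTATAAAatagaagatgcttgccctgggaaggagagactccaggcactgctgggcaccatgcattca
Mmp12, chr9:7347124-7347423, plus strand, the downstream of its 2 annotated starts: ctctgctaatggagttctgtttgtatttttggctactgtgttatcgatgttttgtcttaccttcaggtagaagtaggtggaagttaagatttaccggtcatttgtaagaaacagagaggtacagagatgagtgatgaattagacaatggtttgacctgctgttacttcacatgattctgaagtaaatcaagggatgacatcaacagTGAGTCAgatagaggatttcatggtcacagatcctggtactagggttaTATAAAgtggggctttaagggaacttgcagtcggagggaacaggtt
Mmp3, chr9:7445572-7445871, plus strand: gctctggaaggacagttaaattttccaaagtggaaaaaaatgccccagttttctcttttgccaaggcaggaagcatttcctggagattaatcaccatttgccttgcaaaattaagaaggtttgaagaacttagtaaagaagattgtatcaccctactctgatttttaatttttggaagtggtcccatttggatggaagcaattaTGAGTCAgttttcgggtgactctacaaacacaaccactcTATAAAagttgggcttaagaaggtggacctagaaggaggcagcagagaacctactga
Mmp14, chr14:54431348-54431647, plus strand: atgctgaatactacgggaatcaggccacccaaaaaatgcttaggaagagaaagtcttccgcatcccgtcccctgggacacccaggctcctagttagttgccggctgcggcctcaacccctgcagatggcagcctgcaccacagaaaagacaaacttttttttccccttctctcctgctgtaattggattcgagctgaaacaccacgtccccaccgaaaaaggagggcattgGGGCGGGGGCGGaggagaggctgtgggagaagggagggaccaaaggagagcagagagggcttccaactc
Timp1, chrX:20869916-20870215, plus strand: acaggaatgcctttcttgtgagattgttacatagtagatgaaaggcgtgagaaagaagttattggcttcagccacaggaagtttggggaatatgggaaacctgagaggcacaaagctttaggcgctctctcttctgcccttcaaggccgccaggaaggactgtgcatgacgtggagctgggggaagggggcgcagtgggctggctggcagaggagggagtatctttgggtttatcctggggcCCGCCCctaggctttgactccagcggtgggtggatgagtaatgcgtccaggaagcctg
The 3 neighbours of chromosome 9 each held 1 AP-1 motif, beginning 35 bases before the start in Mmp13, 44 in Mmp12 and 46 in Mmp3, and each held 1 TATAAA, in Mmp12 just after the start. Of all 32851 promoters of this length, 7.81% held TGANTCA, 13.6% held TATAAA and 1.54% held both. The upstream start of Mmp12 held neither. Mmp14 and Timp1 held only GGGCGG, which 35.7% of all promoters held, as did Timp2 and Timp3. Motif matches describe these letters and are not measured binding sites.

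In Col vehicle, levels per exon length ran from Timp2, the widely expressed inhibitor, at 74.2 ± 30.2 RPKM (SD, n = 3), through Mmp2 at 67.2 ± 37.9 RPKM, Timp3, the matrix-bound inhibitor, at 51.7 ± 9.04 RPKM and Mmp14 at 28.5 ± 16.5 RPKM, to Mmp12 at 0.0173 ± 0.0078 RPKM. Between these came Mmp9 at 20 ± 20.1 RPKM, Mmp13 at 15.5 ± 13.4 RPKM and Timp1, the inducible inhibitor, at 6.58 ± 5.12 RPKM. Mmp19 was at 1.66 ± 0.796 RPKM and Mmp3 at 1.24 ± 0.677 RPKM. Neighbours in this order overlapped between mice, except that Timp3 lay above Mmp14 and Mmp12 below Mmp3 in all of them. At 6d post-Col (10U) the order was led by Mmp14 at 167 ± 51.3 RPKM, followed by Mmp2 at 104 ± 12.4 RPKM, Timp2 at 102 ± 20.4 RPKM and Timp1 at 72.3 ± 15.2 RPKM, while Timp3 was at 18.6 ± 8.67 RPKM. Mmp14 made up 57.7 ± 5.07% of the summed RPKM of the 7 MMPs at 6d and 22.2 ± 2.48% in vehicle-treated mice. Timp1 made up 37.2 ± 2.77% of the summed RPKM of the 3 TIMPs at 6d, 61.0 ± 35.3% at 2d (n = 4) and 4.45 ± 2.87% in vehicle-treated mice.

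**Figure D1:**
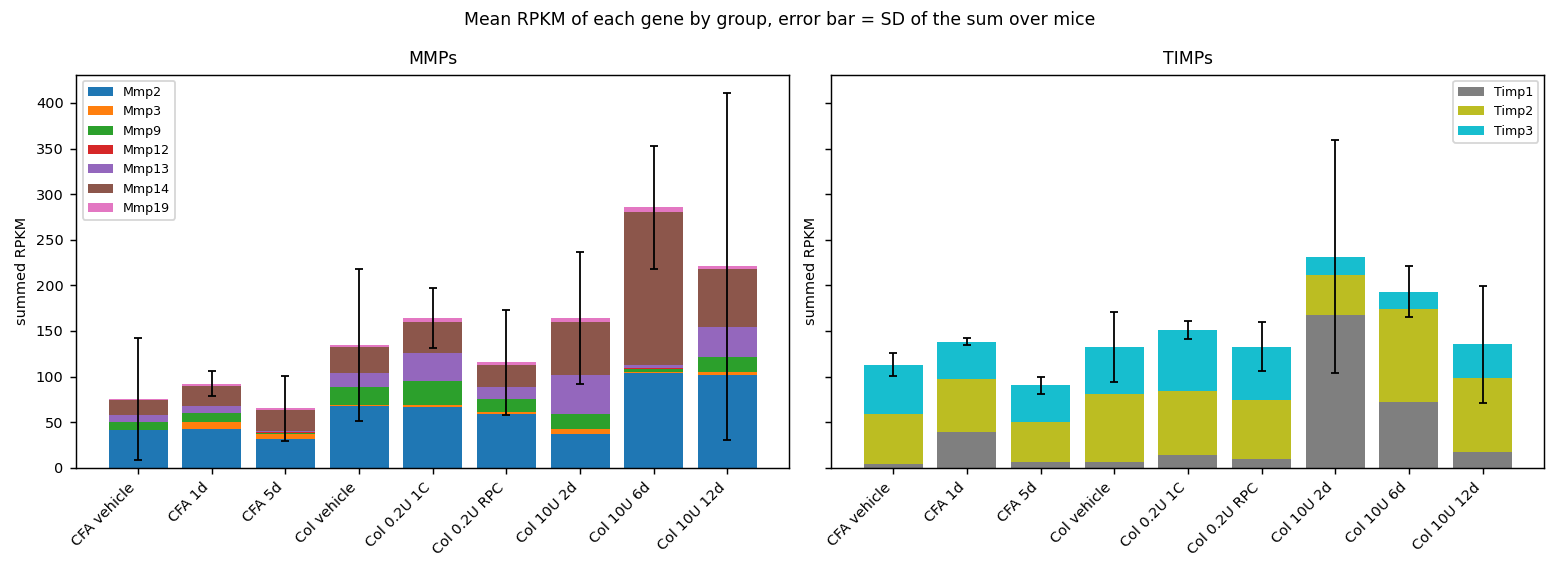
Mean RPKM (reads scaled by exon length and TMM-scaled library total) of each gene, stacked for the 7 MMPs (left) and the 3 TIMPs (right), by group (n = 3 or 4 mice). Error bars are the SD of the sum over mice. The MMP stack reached 285 ± 67.1 RPKM at 6d post-Col (10U) against 134 ± 83.3 RPKM in Col vehicle, with Mmp14 as the largest share, and the TIMP stack reached 232 ± 128 RPKM at 2d with Timp1 as the largest share.

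Mmp9 and Mmp13 spread widely within both vehicle groups. Mmp13 was at 0.121, 3.10 and 63.9 CPM in the CFA vehicle mice and at 58.7, 0.200 and 65.2 CPM in the Col vehicle mice. Mmp9 was at 1.41, 8.94 and 73.1 CPM and at 65.5, 2.53 and 144 CPM in the same mice. Both genes were high or low in the same mice. Summed bone markers, 10 genes of osteoblasts, osteocytes and osteoclasts, were at 18.0, 39.7 and 254 CPM in the CFA vehicle mice and at 217, 33.1 and 307 CPM in the Col vehicle mice. Ibsp, which encodes bone sialoprotein, ranged from 0.133 to 93.2 CPM in Col vehicle, and no bone marker was at 0 in all mice of any group. In both vehicle groups the mouse or mice with high Mmp9 and Mmp13 were those with high bone markers. The same mice were high in neutrophil markers, at 4, 7.25 and 984 CPM and at 375, 15.1 and 1560 CPM. They were also high in tendon and cartilage markers, at 79.1, 202 and 755 CPM and at 1690, 132 and 1100 CPM. The part of these tissues and cells in the values was not tested. Fewer cells of a type and less RNA per cell cannot be told apart in bulk libraries. Between the vehicle groups, 0 of the 9 members tested passed in edgeR's quasi-likelihood test, which called 0.0426% of all genes higher and 0% lower in Col vehicle. None had an unadjusted p under 0.05 (0 of 9), against 326 of 14070 genes in all, and DESeq2 called 0. Mmp3 and Mmp9 had log2 fold changes of 1.25 (SE 0.64) and 1.36 (SE 1.5), with overlap, and the other 7 lay within 1 log2 unit. Mmp12 was under the count filter there.

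**Figure D2:**
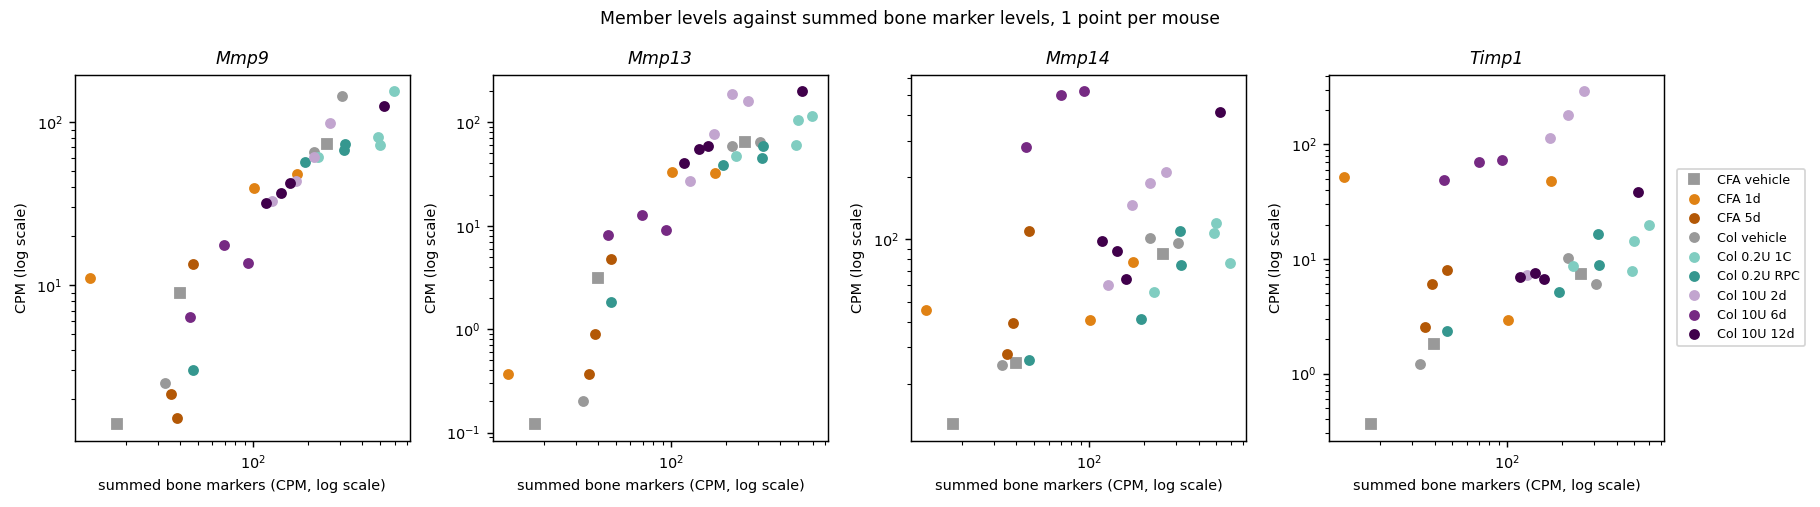
CPM of Mmp9, Mmp13, Mmp14 and Timp1 (y axes, log scale) against the summed CPM of 10 bone markers (x axes, log scale), 1 point per mouse, coloured by group (squares are CFA vehicle). Mmp9 and Mmp13 were lowest in mice with few bone marker reads, while at 6d post-Col (10U) Mmp14 (280 to 521 CPM) and Timp1 (48.9 to 73.9 CPM) lie above most mice with like bone marker levels.

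**Figure D3:**
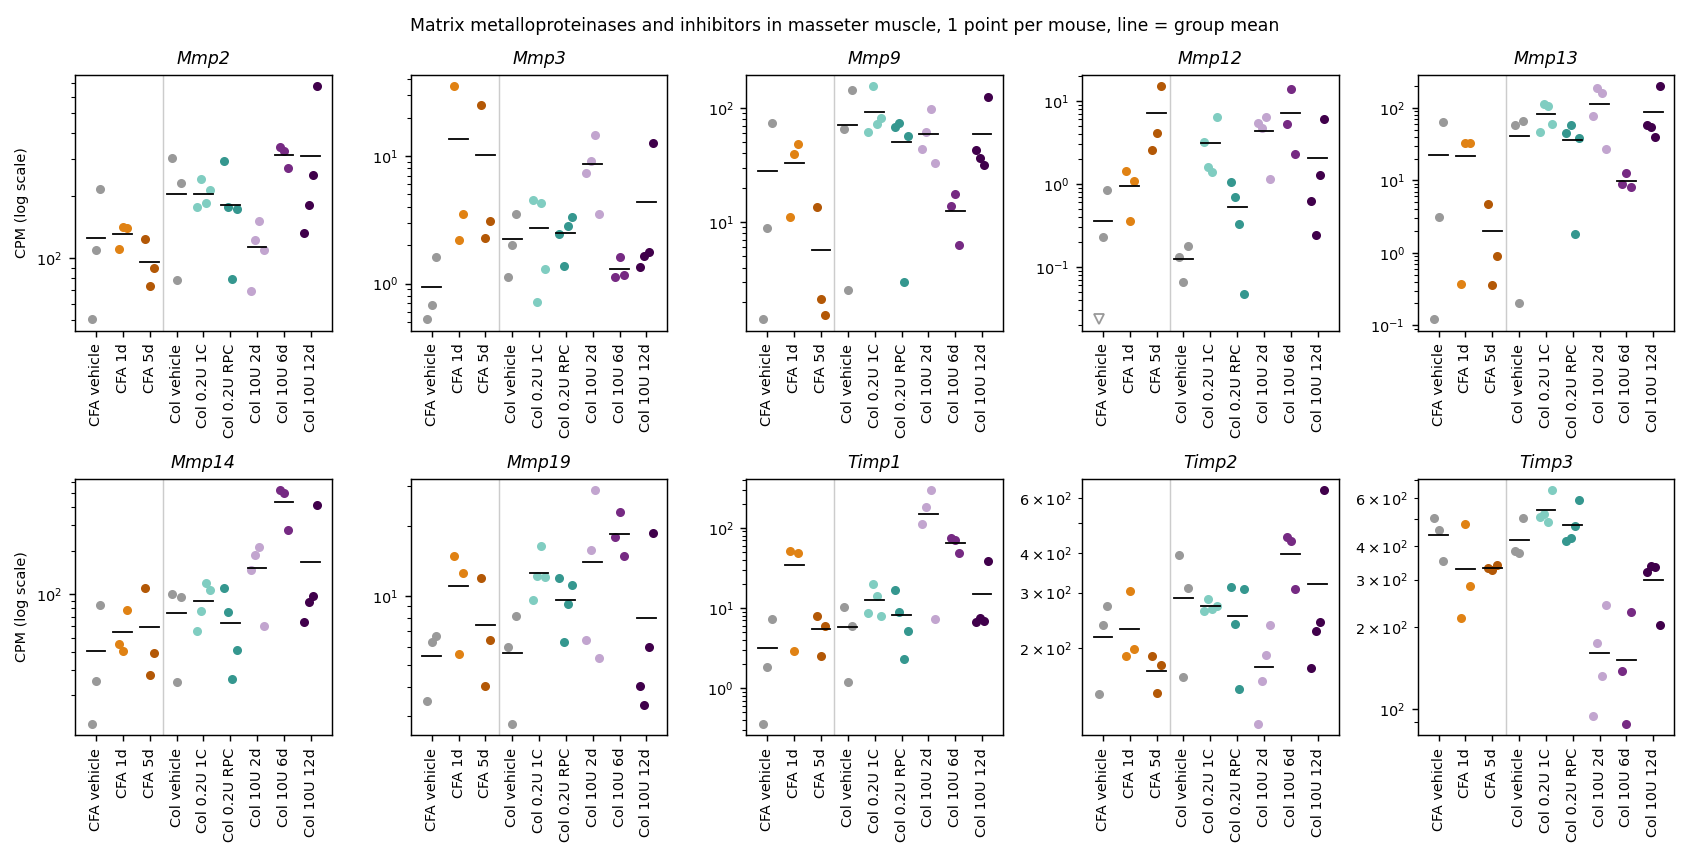
CPM of each of the 10 genes (y axes, log scale) in every mouse of the 9 groups. Points are mice, black lines are group means, and the open triangle is a library with 0 reads for Mmp12. All 3 mice at 6d post-Col (10U) lie above all Col vehicle mice for Mmp12, Mmp14, Mmp19 and Timp1 and below them for Timp3.

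The first comparison asked whether CFA moved these genes at 1d. Mmp3, the stromelysin that cleaves proteoglycans and activates other MMPs, was at 35.3, 2.18 and 3.53 CPM at 1d post-CFA and at 0.525, 0.684 and 1.62 CPM in vehicle. The groups did not overlap, but 1 mouse carried most of the difference (log2 fold change 3.79, SE 1.12, adjusted p = 0.924, edgeR). Timp1 was at 52.0, 2.93 and 48.3 CPM against 0.363, 1.82 and 7.36 CPM. Replicate 2 lay within the vehicle range, and the other mice lay above it (log2 fold change 3.39, SE 1.23, adjusted p = 0.924, edgeR). Mmp12 was 1.35 higher on the log2 scale (SE 1.09, adjusted p = 0.924, edgeR), and the other 7 genes lay within 1 log2 unit of vehicle. None of the 10 genes passed in edgeR, which called 0% of all genes higher and 0% lower. An unadjusted p under 0.05 was found for 2 of the 10, Mmp3 and Timp1, and for 588 of 13944 genes in all. DESeq2 called 1 member, Mmp3, and 56 genes in all.

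At 5d post-CFA, Mmp12, a macrophage enzyme that cleaves elastin, was at 2.58, 4.12 and 15.0 CPM against 0, 0.228 and 0.846 CPM in vehicle. Every treated mouse lay above every vehicle mouse (log2 fold change 4.31, SE 1.16, adjusted p = 0.139, edgeR). The pooled reads gave a ratio of 18.5, with an exact 95% interval of 12.6 to 28.2 that covers counting error only. Mmp3 was at 25.0, 2.29 and 3.12 CPM, also above all vehicle mice (log2 fold change 3.44, SE 1.02, adjusted p = 0.176, edgeR). Mmp9 and Mmp13 had log2 fold changes of -2.27 (SE 1.38) and -3.47 (SE 1.79), and both overlapped with vehicle. Bone markers in these mice summed to 46.7, 35.6 and 38.5 CPM. Salivary gland markers were at 249000, 216000 and 231000 CPM against 121, 173 and 21700 CPM in vehicle, and macrophage markers at 323, 217 and 384 CPM against 81.4, 191 and 223 CPM, with 0 of the 9 and 0 of the 10 tested passing. Their part in these values was not tested. Timp3 lay below every vehicle mouse in 3 of 3, at 331, 326 and 340 CPM against 351 to 504 CPM (log2 fold change -0.35, SE 0.19, adjusted p = 0.499, edgeR). Together with Timp3, 6 genes lay within 1 log2 unit of vehicle. None of the 10 passed in edgeR, which called 1.06% of all genes higher and 0.0428% lower. An unadjusted p under 0.05 was found for 2, Mmp3 and Mmp12, and for 1964 of 14026 genes in all. DESeq2 called the same 2 members and 892 genes in all. Without replicate 3 of CFA vehicle, the mouse with 254 CPM of bone markers, edgeR called 3 of the 10: Mmp3 (adjusted p = 0.0329), Mmp12 (adjusted p = 0.0062) and Timp1, and Mmp9 and Mmp13 turned to log2 fold changes of 0.25 and 0.43. Over all genes, 2162 were called without that vehicle mouse and 155 with it.

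After 0.2U Col, Mmp12 in the 1C group was at 3.17, 1.62, 1.38 and 6.42 CPM against 0.131, 0.0665 and 0.179 CPM in Col vehicle. All 4 mice lay above all vehicle mice, whose libraries held at most 4 reads of this gene. It therefore entered the test only through its counts in treated mice. All 10 macrophage, 10 bone and 10 keratinocyte markers and 9 of 10 adipocyte markers were on average above vehicle, with 0 passing. Keratinocyte markers summed to 312 to 670 CPM against 77.3 to 185 CPM, macrophage markers to 194 to 372 CPM against 112 to 238 CPM and bone markers to 229 to 599 CPM against 33.1 to 307 CPM. Their part in the values was not tested. The log2 fold change was 4.54 (SE 0.76, adjusted p = 0.246, edgeR), and the pooled reads, 255 against 8, gave a ratio of 24.3 with an exact 95% interval of 12.1 to 56.8 for counting error only. Mmp19, a broadly expressed MMP of basement membranes, was at 9.57, 12.2, 16.4 and 12.1 CPM against 6.01, 2.79 and 8.19 CPM, again without overlap (log2 fold change 1.15, SE 0.37, adjusted p = 0.304, edgeR). Timp1 had a log2 fold change of 1.12 (SE 0.65), with overlap, and the other 7 lay within 1 log2 unit. None of the 10 passed in edgeR, which called 0% of all genes higher and 0% lower. An unadjusted p under 0.05 was found for 2, Mmp12 and Mmp19, and for 1819 of 14493 genes in all. DESeq2 called 1 member, Mmp12, and 519 genes in all. Without replicate 2 of the 1C group edgeR also called Mmp12 (adjusted p = 0.0326), and 202 genes in all, against 0 with that mouse.

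In the RPC group all 9 genes tested lay within 1 log2 unit of vehicle. None of the 9 passed in edgeR, which called 0% of all genes higher and 0% lower, none had an unadjusted p under 0.05, against 1923 of 14269 genes in all, and DESeq2 called 0 members and 443 genes. Mmp12 was under the count filter with 38 reads in the 4 libraries against 8 in vehicle, a ratio of 3.91 with an exact 95% interval of 1.80 to 9.71 for counting error only. Its levels were 1.05, 0.688, 0.333 and 0.0471 CPM, so replicate 4 lay below every vehicle mouse.

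At 2d post-Col (10U), Mmp12 was at 5.34, 4.73, 6.32 and 1.14 CPM against at most 0.179 CPM in vehicle, above all vehicle mice in 4 of 4 (log2 fold change 4.96, SE 0.75, adjusted p = 0.0344, edgeR). The pooled reads gave a ratio of 31.7, with an exact 95% interval of 15.9 to 73.9 for counting error only. Macrophage markers summed to 464, 594, 903 and 340 CPM at 2d and to 213, 112 and 238 CPM in vehicle, and 1 of these 10 markers passed, Fcgr1, an immunoglobulin receptor. The share of macrophages in the Mmp12 level was not tested. Mmp12 was the only one of the 10 members to pass at 2d, in a comparison where edgeR called 1.14% of all genes higher and 1.08% lower. No Col vehicle library held more than 4 reads of Mmp12, under the filter of 10. The gene thus entered the tests of 1C, 2d, 6d and 12d against vehicle only through its counts in treated mice. With no filter, edgeR called it at 2d and 6d and not in 1C or at 12d.

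Timp1, which blocks most secreted MMPs, led the family at 2d per exon length with 167 ± 134 RPKM (SD, n = 4). Its CPM were 113, 181, 292 and 7.26 CPM against 10.3, 1.20 and 6.04 CPM. Replicates 1 to 3 lay above 100 CPM, and replicate 4 lay within the vehicle range (log2 fold change 4.60, SE 1.23, adjusted p = 0.0655, edgeR). Timp3 was at 94.7, 175, 132 and 242 CPM against 382, 375 and 506 CPM, without overlap (log2 fold change -1.43, SE 0.33, adjusted p = 0.0560, edgeR). Mmp3 was at 7.33, 9.18, 14.7 and 3.53 CPM against 1.13, 2.00 and 3.54 CPM, with replicate 4 just under the highest vehicle mouse (log2 fold change 1.92, SE 0.58, adjusted p = 0.0763, edgeR). Mmp13 (log2 fold change 1.38, SE 1.24) and Mmp19 (1.25, SE 0.66) also lay over 1 log2 unit above vehicle, with overlap. An unadjusted p under 0.05 was found for 4 of the 10 and for 4781 of 14373 genes in all. With a bone marker score in a fit shared by all 31 libraries, chosen after the data were seen, Mmp13 passed as higher (log2 fold change 2.28, SE 0.65, adjusted p = 0.0103, edgeR), against 1.38 (SE 1.32, adjusted p = 0.438) in that fit without the score. Without replicate 4 of 2d edgeR called 4 of the 10, adding Timp1 (adjusted p = 0.00365), Timp3 (0.00405) and Mmp3 (0.0143). Over all genes, 5143 were called without that mouse and 319 with it. The call for Mmp12 was lost without vehicle replicate 1 or 2 (adjusted p = 0.167 and 0.113) and without 2d replicate 1, 2 or 3 (0.114, 0.112 and 0.0795). In that order, these fits called 20, 21, 13, 12 and 25 genes in all, against 319 with all mice.

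At 6d post-Col (10U), 5 of the 10 members passed, 4 higher and 1 lower, where edgeR called 14% of all genes higher and 13.3% lower. Mmp14, the membrane-anchored protease that cleaves fibrillar collagen and activates pro-MMP2, was at 521, 499 and 280 CPM against 101, 24.7 and 96.4 CPM in vehicle. The groups did not overlap (log2 fold change 2.51, SE 0.54, adjusted p = 0.0175, edgeR). Timp1 was at 73.9, 69.9 and 48.9 CPM against 10.3, 1.20 and 6.04 CPM. All 3 mice lay well above vehicle (log2 fold change 3.40, SE 0.63, adjusted p = 0.0113, edgeR). Mmp12 was at 5.33, 13.7 and 2.32 CPM against 0.131, 0.0665 and 0.179 CPM, again above all vehicle mice (log2 fold change 5.67, SE 0.81, adjusted p = 0.00517, edgeR), with 581 reads against 8, a ratio of 57.2 and an exact 95% interval of 28.8 to 133 for counting error only.

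Mmp19 was at 17.9, 23.0 and 14.8 CPM against 6.01, 2.79 and 8.19 CPM, without overlap (log2 fold change 1.66, SE 0.39, adjusted p = 0.0219, edgeR). Timp3 was the member that fell, to 138, 88.5 and 228 CPM from 382, 375 and 506 CPM (log2 fold change -1.5, SE 0.36, adjusted p = 0.0243, edgeR). Both of these genes share exon bases with an opposite-strand gene. In this comparison, all genes with 10 to 30% of exon bases so overlapped had a median log2 fold change of -0.10 and those with none 0.01. The part of counting in these calls cannot be told apart from the injection. Of the others, Mmp9 had a log2 fold change of -2.55 (SE 1.08, adjusted p = 0.111, edgeR) and Mmp13 of -2.11 (SE 1.19, adjusted p = 0.208, edgeR), both overlapping with vehicle, and Mmp2, Mmp3 and Timp2 lay within 1 log2 unit.

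Marker sums moved along with these genes at 6d. Macrophage markers were at 1030, 1480 and 758 CPM against 213, 112 and 238 CPM in vehicle, and all 10 passed higher. Fibroblast markers were at 8410, 8410 and 5070 CPM against 2450, 908 and 2140 CPM, with 3 of 10 passing higher, led by Postn (periostin), and 1 lower. Skeletal muscle markers were at 60500, 40800 and 68300 CPM against 152000, 154000 and 106000 CPM, with 3 of 10 passing lower. Neutrophil markers were at 14.3, 16.7 and 18.5 CPM against 375, 15.1 and 1560 CPM, with 6 of the 8 tested passing lower, and tendon and cartilage markers at 600 to 720 CPM against 132 to 1690 CPM, with 4 of the 8 tested passing lower and 1 higher. Of the markers tested, 6 of 8 of keratinocytes, 3 of 3 of salivary gland, 3 of 10 of adipocytes and 2 of 9 of bone also passed lower. Their part in the member changes was not tested. Calls hung on single mice: without 6d replicate 1, Mmp14 (adjusted p = 0.0628), Mmp19 (0.0705) and Timp3 (0.0933) were lost, and without 6d replicate 2 the same 3 were lost (0.0621, 0.0900 and 0.0695). Calls over all genes also fell in these fits, to 1011 and 809, against 3900 with all mice. Mmp19 was also lost without vehicle replicate 1 (0.0575) and with a replicate block (0.0634), and without vehicle replicate 2, the mouse with 33.1 CPM of bone markers and 238000 CPM of salivary gland markers, Mmp9 (adjusted p = 0.00769) and Mmp13 (0.00214) passed as lower. In that order, these fits called 2079, 1473 and 2798 genes in all. With any 1 of the 6d mice left out, Mmp12 was under the count filter, and Timp1 passed without each of the 6 mice.

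**Figure D4:**
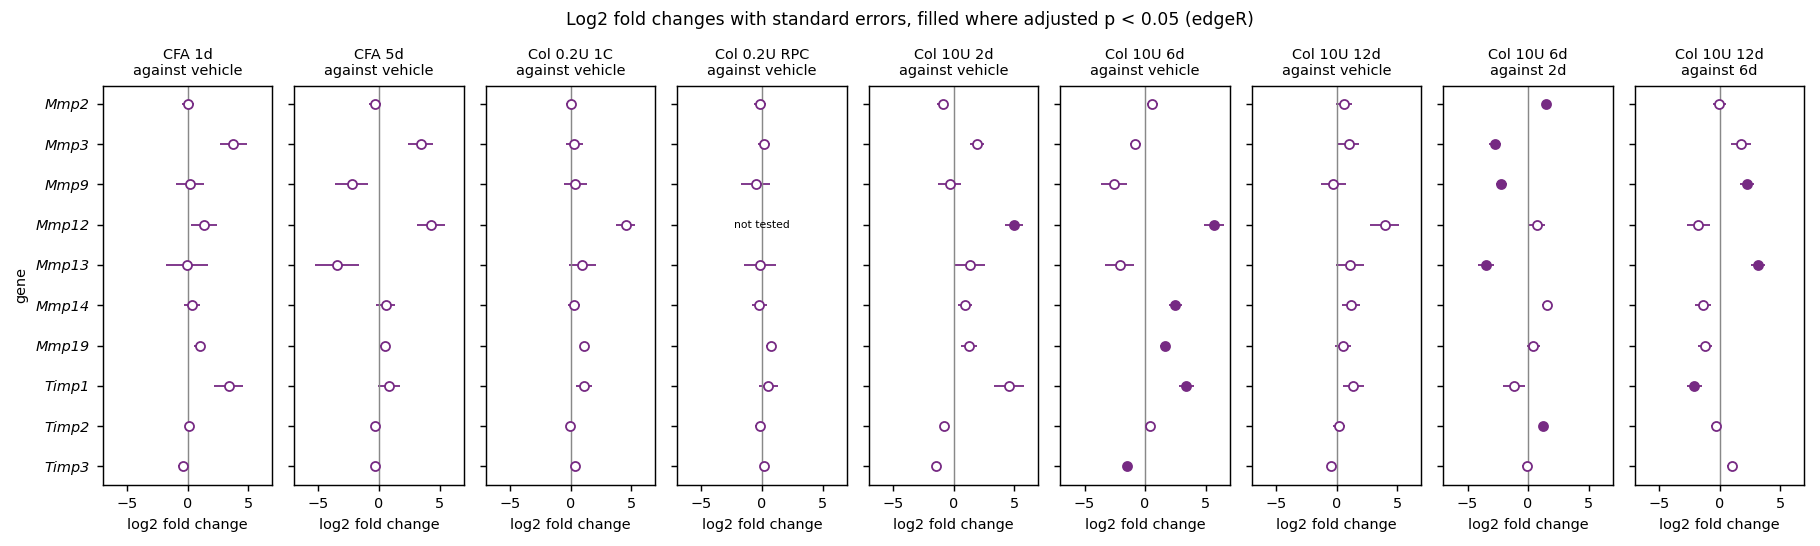
Log2 fold changes (x axes) of the 10 genes (rows) in the 7 comparisons with vehicle and the 2 comparisons between times of 10U Col, with bars for 1 standard error. Filled points passed at an adjusted p under 0.05 in edgeR. At 6d post-Col (10U) 5 points are filled, against 1 at 2d and 0 at 12d.

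The times after 10U Col were also compared with each other, within libraries whose share of ambiguous reads was alike. From 2d to 6d, 2 members rose and 3 fell, where edgeR called 4.68% of all genes higher and 4.05% lower. Mmp2, a gelatinase of fibroblasts, rose from 69.1, 122, 151 and 109 CPM to 344, 330 and 273 CPM (log2 fold change 1.5, SE 0.27, adjusted p = 0.0185, edgeR). Timp2, which with MMP14 forms the complex that activates pro-MMP2, rose from 115, 157, 190 and 236 CPM to 451, 437 and 307 CPM (log2 fold change 1.20, SE 0.28, adjusted p = 0.0399, edgeR). Neither overlapped between times. Fibroblast markers went from 1010, 1400, 1770 and 1740 CPM to 8410, 8410 and 5070 CPM and macrophage markers from 464, 594, 903 and 340 CPM to 1030, 1480 and 758 CPM, each with 3 of 10 passing higher, while 7 of the 9 salivary gland markers tested passed lower. Their part in these values was not tested. Mmp14 was higher at 6d in all mice as well (log2 fold change 1.53, SE 0.42, adjusted p = 0.0619, edgeR), and Timp1 was lower on average, at -1.19 (SE 0.90, adjusted p = 0.454, edgeR). Mmp12, Mmp19 and Timp3 lay within 1 log2 unit, at 0.72, 0.42 and -0.07.

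The members that fell from 2d to 6d were Mmp3, Mmp9 and Mmp13. Mmp13, the collagenase of cartilage and bone, went from 77.7, 188, 161 and 27.3 CPM to 9.06, 12.7 and 8.13 CPM (log2 fold change -3.49, SE 0.65, adjusted p = 0.0219, edgeR). Mmp9, the gelatinase of osteoclasts and neutrophils, went from 43.7, 61.0, 98.7 and 32.9 CPM to 13.7, 17.6 and 6.35 CPM (log2 fold change -2.22, SE 0.47, adjusted p = 0.0330, edgeR). Mmp3 went from 7.33, 9.18, 14.7 and 3.53 CPM to 1.12, 1.61 and 1.16 CPM (log2 fold change -2.72, SE 0.49, adjusted p = 0.0197, edgeR). No mouse at 6d reached any mouse at 2d in these genes. Bone markers went from 173, 216, 265 and 128 CPM to 94.3, 69.8 and 44.9 CPM with 2 of the 9 tested passing lower, and neutrophil markers from 91.4, 254, 386 and 361 CPM to 14.3, 16.7 and 18.5 CPM with 7 of 9 passing lower. In the fit shared by all 31 libraries, the log2 fold changes of Mmp9 and Mmp13 went from -2.20 (adjusted p = 0.202) and -3.48 (adjusted p = 0.123) without the bone marker score to -0.34 (0.723) and -0.73 (0.479) with it, while that of Mmp3 was -2.71 (0.0746) without and -2.68 (0.0747) with it, in edgeR. The score comes from the same libraries and holds Sp7 and Ibsp, the genes most alike to Mmp13 in course. A smaller change with it was thus to be expected, and the part of bone tissue was not tested.

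All 5 of these calls were lost without 6d replicate 1 (adjusted p = 0.0818 to 0.144), 6d replicate 2 (0.0893 to 0.158) or 2d replicate 2 (0.0582 to 0.120). Calls over all genes also fell in these fits, to 214, 126 and 317, against 1267 with all mice. Without 6d replicate 3 only Mmp2 passed, with Mmp3, Mmp9, Mmp13 and Timp2 at 0.0783, 0.0897, 0.0870 and 0.0635, and without 2d replicate 1 Mmp9 and Timp2 were lost (0.0577 and 0.0755). The genes called in all were 441 and 469 there. Without 2d replicate 4 edgeR called 7, adding Mmp14 (0.0106) and Timp1 (0.0115). Over all genes, 4105 were called without that mouse and 1267 with it.

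From 6d to 12d, 2 members rose and 1 fell, where edgeR called 13.4% of all genes higher and 13% lower. Mmp13 went back to 58.7, 54.7, 40.2 and 200 CPM (log2 fold change 3.16, SE 0.60, adjusted p = 0.0157, edgeR). Mmp9 went to 42.6, 36.7, 31.8 and 125 CPM (log2 fold change 2.24, SE 0.57, adjusted p = 0.0289, edgeR). Timp1 fell to 6.64, 7.58, 6.95 and 38.1 CPM (log2 fold change -2.10, SE 0.63, adjusted p = 0.0447, edgeR). Replicate 4 of 12d was the highest of its group in all 3, yet no gene of the 3 overlapped between times. Macrophage markers went from 1030, 1480 and 758 CPM to 118, 108, 178 and 613 CPM, with 5 of 10 passing lower, and their part in the fall of Timp1 was not tested. Neutrophil markers went from 14.3, 16.7 and 18.5 CPM to 60.8, 80.8, 15 and 146 CPM, with 3 of the 8 tested passing higher. Tendon and cartilage markers went from 600, 720 and 662 CPM to 309, 492, 464 and 1590 CPM, also with 3 of the 8 tested passing higher. The part of both in the rise of Mmp9 and Mmp13 was not tested. Bone markers were at 159, 143, 118 and 524 CPM at 12d, with 5 of 10 passing higher, and in the shared fit the log2 fold changes of Mmp9 and Mmp13 were 2.23 (adjusted p = 0.145) and 3.14 (adjusted p = 0.114) without the bone marker score and turned to -0.35 (0.679) and -0.60 (0.522) with it, in edgeR. With the same limit of the score as above, the part of bone tissue was not tested here either. Mmp3 (1.76, SE 0.85), Mmp12 (-1.76, SE 0.96), Mmp14 (-1.37, SE 0.64) and Mmp19 (-1.19, SE 0.56) also had log2 fold changes over 1 in size, with overlap and without a call, and Mmp2, Timp2 and Timp3 were at -0.01, -0.31 and 1.

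Without replicate 4 of 12d edgeR called 9 of the 10, adding Mmp2, Mmp12 (log2 fold change -3.27, adjusted p = 0.00732), Mmp14 (-2.37, 0.000564), Mmp19 (-2.05, 0.000619), Timp2 and Timp3. Over all genes, 7687 were called without that mouse and 3785 with it. Timp1 was lost without any other single mouse (adjusted p = 0.0786 to 0.139), as was Mmp9 (0.0530 to 0.0899), and Mmp13 was lost without 6d replicate 1 or 2 (0.0529 and 0.0712). Calls over all genes also fell without any of these other mice, to 234 to 1962.

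At 12d post-Col (10U), none of the 10 members passed against vehicle in edgeR, which called 0.762% of all genes higher and 0.466% lower. An unadjusted p under 0.05 was found for 1 member and for 2461 of 14176 genes in all, and DESeq2 called 1 member and 902 genes, the member in both cases being Mmp12. Mmp12 was at 0.625, 0.245, 1.29 and 6.02 CPM, still above all vehicle mice (log2 fold change 3.96, SE 1.20, adjusted p = 0.173, edgeR), with a ratio of pooled reads of 16.9 and an exact 95% interval of 8.37 to 39.7 for counting error only. Mmp14 was at 64.5, 88.1, 97.8 and 414 CPM against 101, 24.7 and 96.4 CPM, so that 3 mice lay in the vehicle range and 1 was close to the 6d level (log2 fold change 1.20, SE 0.76, adjusted p = 0.449, edgeR). Timp1 (1.37, SE 0.86) and Mmp13 (1.11, SE 1.18) had log2 fold changes over 1, and the other 6 lay within 1 log2 unit of vehicle. Of these, Timp3 lay below every vehicle mouse in 4 of 4, at 321, 337, 333 and 204 CPM against 375 to 506 CPM (log2 fold change -0.47, SE 0.24, adjusted p = 0.360, edgeR). A p that misses the threshold in this design does not show that levels had returned to those of vehicle.

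The effects of the agents were compared as a difference of differences, each against its own vehicle. Early, at 1d for CFA and 2d for 10U Col, none of the 10 members differed in edgeR, which called 0.0406% of all genes higher and 0.0541% lower for CFA. An unadjusted p under 0.05 was found for 1, Mmp12 (difference -3.59 on the log2 scale, SE 1.42, adjusted p = 0.697, edgeR), and for 1011 of 14794 genes in all, and DESeq2 called 0 members and 108 genes. Mmp3 (1.89, SE 1.24), Mmp13 (-1.39, SE 2.37), Timp1 (-1.17, SE 1.72) and Timp3 (1.04, SE 0.49) had differences over 1, without a call, and the standard error of Mmp13 and of Timp1 was larger than the difference itself. Later, at 5d for CFA and 6d for 10U Col, 1 member differed, Mmp3 (difference 4.26, SE 1.22, adjusted p = 0.0461, edgeR), where 6.96% of all genes were called higher and 4.34% lower for CFA. Mmp3 was higher than vehicle in 3 of 3 mice at 5d post-CFA, while at 6d post-Col its 1.12, 1.61 and 1.16 CPM lay within the 1.13 to 3.54 CPM of vehicle or at its lower edge. In this contrast 9 of 9 salivary gland markers and 4 of 8 keratinocyte markers tested also passed higher for CFA. Salivary gland markers were at 249000, 216000 and 231000 CPM at 5d post-CFA and at 24.8, 11.5 and 35.9 CPM at 6d post-Col (10U). Their part in the Mmp3 difference was not tested. The call for Mmp3 was lost without CFA 5d replicate 1 (difference 2.25, adjusted p = 0.0979), without CFA vehicle replicate 1 or 2 (0.0903 and 0.0923), without Col vehicle replicate 2 or 3 (0.0798 and 0.0663) and without 6d replicate 1, 2 or 3 (0.0959, 0.0976 and 0.0888). These fits called 563 to 2658 genes in all, against 1684 with all mice. Mmp12 (-1.36, SE 1.55), Mmp13 (-1.36, SE 2.31), Mmp14 (-1.96, SE 1.05), Mmp19 (-1.18, SE 0.64), Timp1 (-2.60, SE 1.22) and Timp3 (1.16, SE 0.42) had differences over 1 without a call.

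Other genes of the same system were read from lists of related proteases, inhibitors and substrates. At 6d post-Col (10U), of 11 other MMPs and inhibitors tested, 4 passed higher and 2 lower, with a list median log2 fold change of -0.46 against 0.01 over all genes. Timp4, the TIMP of heart and muscle, was lower (-2.81, SE 0.51, adjusted p = 0.0109, edgeR), and Mmp16, a membrane-type protease, was higher (2.46, SE 0.63, adjusted p = 0.0285, edgeR). The list counts at 6d stand beside 14% of all genes called higher and 13.3% lower. Of the 15 ADAM and ADAMTS proteases, 9 passed higher and 0 lower, led by Adam12, a protease of regenerating muscle (4.16, SE 0.69), Adamts4, an aggrecanase (3.60, SE 0.45), and Adamts14, a procollagen N-proteinase (2.91, SE 0.40). Of 13 matrix substrates 8 passed higher and 0 lower, led by Tnc, tenascin-C (4.68, SE 0.76), Fn1, fibronectin (2.89, SE 0.57), and Col5a1 (2.76, SE 0.60). Of 9 genes of the plasminogen system and MMP activation tested, 3 passed higher, among them Plat, a plasminogen activator, at 1.55 (SE 0.27), and 1 lower, Lcn2, a neutrophil protein that binds MMP9 (-6.38, SE 1.39). Of 13 cytokine inducers and AP-1 genes, 3 passed higher: Il6 (3.08, SE 0.79), Junb (1.93, SE 0.39) and Tgfb1 (1.44, SE 0.34). Il6 was near the floor, with means of 0.481 CPM at 6d and 0.0589 CPM in Col vehicle. Like Mmp12, it entered the test only through its counts in treated mice.

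At 2d post-Col (10U), the lists gave 1 call in all, Jund, an AP-1 subunit (1.41, SE 0.28, adjusted p = 0.0488, edgeR), although all 12 cytokine inducers and AP-1 genes tested lay above vehicle with a median of 1.52. There edgeR called 1.14% of all genes higher and 1.08% lower. From 2d to 6d, 6 of 13 matrix substrates rose and 0 fell, led by Eln, elastin (2.66, SE 0.31), and 4 of 11 other MMPs and inhibitors rose, with Mmp23 at 2.19 (SE 0.27) and Mmp16 at 1.95 (SE 0.35), while Mmp8, the neutrophil collagenase of the chromosome 9 run, fell (-2.61, SE 0.65). Over all genes, edgeR called 4.68% higher and 4.05% lower between these times. From 6d to 12d, Timp4 rose (2.75, SE 0.47), where edgeR called 13.4% of all genes higher and 13% lower. After CFA the lists gave 0 calls at 1d and 1 at 5d, Furin, a convertase that activates pro-MMP14 (0.95, SE 0.14, adjusted p = 0.0397, edgeR). Over all genes, edgeR called 0% at 1d, and 1.06% higher and 0.0428% lower at 5d. After 0.2U Col and at 12d the lists gave 0 calls. Of all genes, 0% were called after 0.2U Col, and 0.762% higher and 0.466% lower at 12d.

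Genes with the most alike course over the 31 libraries were sought among 15526 genes by the mean absolute difference of centred log2 CPM, where a smaller value is more alike. For Mmp13 they were Sp7, the osteoblast transcription factor (0.593), Ibsp (0.869) and Mmp9 (0.898), against a median of 2.47 over all genes. For Mmp9 they were Tnfsf11, which encodes RANKL (0.587), Slc26a7 (0.596) and Lipc (0.687). For Mmp14 they were the fibrillar collagen genes Col5a2 (0.279) and Col3a1 (0.305), and Sh3pxd2b (0.318), against 1.06 over all genes. For Timp1 they were Adamts4 (0.692), Tubb6 (0.705) and Lox, lysyl oxidase (0.739), and for Mmp12 the myeloid genes Bcl2a1b (0.878), Ly86 (0.953) and Mpeg1 (0.972). For Timp3 they were Myh11, smooth muscle myosin (0.231), Lims2 (0.249) and Acss2 (0.265). The remaining members had as nearest genes Lpar1 for Mmp2 (0.261), Bst1 for Mmp3 (0.740), 5430435G22Rik for Mmp19 (0.319) and Sdc2 for Timp2 (0.176). These likenesses are descriptions over libraries that share groups and cell content.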

How the data were processed

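Left masseter muscle from 31 mice gave 1 poly(A) library each. Per the labels, the authors used bcl2fastq, TopHat2 and HTSeq with build mm9 (versions not given in the sources used here), on stranded single-end reads of 50 bases. The authors deposited raw counts of reads per gene symbol for each library, 22609 genes, with closing lines for reads assigned to no gene, which were left out of totals and tests. No 2 of the 465 pairs of libraries held identical values. Each library is a separate mouse, and p-values measure the spread between these mice.

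Each comparison was fitted on its own libraries with edgeR 4.0.16 (R 4.3.3; TMM scaling, a minimum of 10 counts reached in 3 or more libraries, quasi-likelihood F test, Benjamini-Hochberg adjustment over all genes tested, threshold 0.05). Standard errors were derived from the log2 fold change and its F statistic. CPM used TMM factors over all libraries, and RPKM used merged exon lengths of GENCODE vM1. Before TMM scaling, totals of 14843778 to 29076671 counts make 1 read worth 0.0344 to 0.0674 CPM, and 10 counts carry a counting error of 31.6%. Intervals and floors cover counting error only. DESeq2 1.42.0, its size factors, the study's thresholds (RPKM over 1, fold over 2), no filter, a shared fit, pooled vehicles, a replicate block and leaving out each mouse were alternatives, and a bone marker score was added after seeing the data. That score was the mean log2 CPM of the 10 bone markers in the same libraries, and no score of another tissue was fitted. The fits were tested on simulated counts with 200 changed genes, all changed by the same fold up or down. Counts were drawn once per setting, with the spread of each gene as edgeR estimated it in vehicle libraries and without shifts in tissue content. With the spread of CFA vehicle and 3 treated libraries, edgeR recovered 160 with 8 wrong calls, and DESeq2 175 with 41. With the spread of Col vehicle and 4 treated libraries, edgeR recovered 173 with 12 wrong calls, and DESeq2 175 with 36. Member calls made by DESeq2 alone stand beside this higher number of wrong calls. As the spread came from edgeR and tissue content did not shift, the simulation cannot give the share of wrong calls in the real libraries.

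The members and lists were chosen with earlier results of these data known. Members that passed are given in each mouse, those that passed or exceeded 1 log2 unit by fold change, and the rest by range. Up to 3 passing genes with the largest change are named per list (1 gene of the lists is not reported here), and the 3 most alike genes per member. Deviations of same-numbered mice correlated above 0.1 in every pair only for CFA 1d against vehicle (0.177 to 0.600) and between the vehicle groups (0.115 to 0.681). The numbers come from the titles, and the block changed no member call there.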

Additional observations from a re-analysis of the deposited data

Results flagged for a closer look

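Replicate 4 at 12d post-Col (10U) lay far from the other 3 mice of its group for 8 of the 10 genes: Mmp3 at 12.6 CPM, Mmp9 at 125 CPM, Mmp13 at 200 CPM, Mmp14 at 414 CPM, Mmp19 at 18.7 CPM, Timp1 at 38.1 CPM, Timp2 at 633 CPM and, as the only low value, Timp3 at 204 CPM. Each gap to the nearest mouse was above Dixon's 95% critical value for groups of 4. In all, 40 groups of 4 were examined and chance alone marks about 1 in 20. All 8 marks fell on this mouse, whose macrophage markers summed to 613 CPM against 108 to 178 CPM, bone markers to 524 CPM against 118 to 159 CPM and muscle markers to 57400 CPM against 103000 to 131000 CPM in the other mice at 12d. The part of these cell contents in its values was not tested.

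The effect on Mmp3 differed between agents, by 4.26 on the log2 scale for CFA at 5d over 10U Col at 6d (SE 1.22, adjusted p = 0.0461, interaction term in edgeR). Mmp3 was higher than vehicle in 3 of 3 mice after CFA, and 1 of these mice, at 25.0 CPM, carried most of the size. The call was lost in 8 of the 12 fits with 1 mouse left out and in 3 of the 6 other alternatives. In the same contrast 9 of 9 salivary gland markers and 4 of 8 keratinocyte markers tested passed higher for CFA. Their part in the Mmp3 difference was not tested.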

How the results depend on the processing

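Of 782 alternative values for 55 member values, 659 kept their direction and side of the threshold, 68 lost a call, 44 gained one and 11 turned in direction, 2 of them called ones. The number of members called moved as follows, and the cause was not tested. DESeq2 called 1 at CFA 1d, 2 at CFA 5d, 1 in 1C, 4 at 10U 2d, 1 at 12d, 6 for 6d against 2d and 4 for 12d against 6d. In the simulated counts DESeq2 made more wrong calls than edgeR. The study's thresholds left 0 at 10U 2d and 4 at 6d, where Mmp12 was dropped. The fit shared by all 31 libraries called 3 at 10U 2d, 2 for 6d against 2d, 1 for 12d against 6d and 0 for the later difference of CFA and 10U, and pooled vehicles gave 4 at 10U 2d. The replicate block called 1 at CFA 5d, 4 at 10U 2d, 4 at 6d (Mmp19 lost, adjusted p = 0.0634), 6 for 6d against 2d, 8 for 12d against 6d and 0 for the later difference of agents. In every comparison the same-numbered mice shared only a number from the titles and are not known to be pairs. Outside the 2 comparisons with all correlations of deviations above 0.1, the lowest was -0.382. With the bone marker score, added after seeing the data, 6 were called at 10U 2d, 7 at 6d, 3 for 6d against 2d and 7 for 12d against 6d. Leaving out 1 mouse gave 0 to 3 at CFA 5d, 0 to 1 in 1C and for the later difference, 0 to 4 at 10U 2d, 1 to 7 at 6d, 0 to 7 for 6d against 2d, 0 to 9 for 12d against 6d and 0 elsewhere. Direction turned with the bone marker score for Mmp13 at CFA 5d (0.31) and 10U 6d (1.55) and for Mmp9 (-0.35) and Mmp13 (-0.60) from 6d to 12d. Without CFA vehicle replicate 3 it turned for Mmp9 (0.25) and Mmp13 (0.43) at CFA 5d, for Mmp13 (2.41) and Timp1 (0.39) in the early difference of agents and for Mmp12 (0.40) and Mmp13 (2.55) in the later one. Without CFA 1d replicate 1 it turned for Mmp3 (-0.27) in the early one. Over all single mice left out, these log2 values ranged at CFA 5d from -3.91 to 0.25 for Mmp9 and -5.14 to 0.43 for Mmp13, in the early difference from -0.27 to 2.53 for Mmp3, -1.97 to 2.41 for Mmp13 and -1.88 to 0.39 for Timp1, and in the later one from -2.56 to 0.40 for Mmp12 and -3.10 to 2.55 for Mmp13. Over all genes, calls at 10U 2d numbered 319, against 3322 with DESeq2, 4943 in the shared fit, 5043 with pooled vehicles, 5386 with the bone marker score and 4500 with the block. At 6d there were 3900, against 2195 with the study's thresholds, 5875 with pooled vehicles, 6323 with the bone marker score and 1473 with the block. At CFA 5d there were 155, against 892 with DESeq2, 60 with its size factors, 38 in the shared fit, 52 with the bone marker score and 0 with pooled vehicles. At 12d there were 174, against 902 with DESeq2, 114 with the study's thresholds, 778 in the shared fit, 450 with pooled vehicles, 771 with the bone marker score and 43 with the block. For 6d against 2d there were 1267. DESeq2 gave 2707 there, the shared fit 1810, the bone marker score 3007 and the block 2208. For 12d against 6d there were 3785. DESeq2 gave 5367 there, the shared fit 3210, the bone marker score 4593 and the block 7056. With 1 mouse left out, 126 to 4105 genes were called for 6d against 2d and 234 to 7687 for 12d against 6d. Mmp12 at 8 reads in all Col vehicle libraries was limited by depth.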
